A study of Mus musculus with 4 samples.

Results

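Cigarette smoke (CS) was compared with room air (RA) in lungs of mice without functional p16 (p16-/-), as the CS effect on the 84 targets of a quantitative PCR array that covers insulin signaling. The 7 lungs used, 4 in CS and 3 in RA, are those whose columns of the deposited table carry these 2 group names, out of 15 lungs in all. One further column of each group, equal within 0.001 cycles to the average of its group, was not counted as a lung. The other 8 lungs came from wild-type mice (p16+/+) in CS or RA and served here only to share the estimate of the spread and for 1 comparison of the CS effect between genotypes.

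The p16-/- CS mice and the p16-/- RA mice were both p16Luc mice, of B6.Cg background with the alleles Cdkn2a tm3.1Nesh and Tyr c-2J, in which a luciferase gene placed behind the p16 promoter removes p16 function in every cell of the animal. The p16-/- CS group is labelled with an age of 8 weeks, read as the age at the start, and 16 weeks of CS. The p16-/- RA group is labelled as 24 weeks old. The p16+/+ CS and p16+/+ RA groups were of the strain B6(Cg)-Tyrc-2J/J at the same labelled ages, so the genotypes also differ in strain source. The array carries no assay of Cdkn2a, whose product is p16, and the loss of p16 could therefore not be checked here. It also holds no defining marker of lung epithelium, endothelium or leukocytes, so the labelled tissue could not be checked against its own markers. Each group has a single sample record for all of its lungs. Nothing in it ties a column to a separate animal, so a p-value here measures only the spread between the lungs as deposited.

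Insulin and the insulin-like growth factors bind receptor tyrosine kinases at the cell surface, which phosphorylate docking proteins such as the insulin receptor substrates. From there the signal runs through a branch of phosphatidylinositol 3-kinase (PI3K), Akt and mTOR, which promotes glucose uptake, lipid synthesis and translation, and through a branch of Ras, Raf and mitogen-activated protein kinases (MAPK), which ends in immediate early transcription factors. In the lung the same pathways are known for their roles in growth, survival and repair of the epithelium, while p16 itself is an inhibitor of the cell cycle that accumulates in senescent cells.

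The array gives a threshold cycle (CT) for each gene in each lung, that is, the cycle at which fluorescence first exceeds a set level, and less template gives a higher CT. For each lung the CT of a target was subtracted from the mean CT of 5 reference genes (-ΔCT, a level on a log2 scale, higher for more transcript). A difference of 1 between 2 groups is a 2-fold difference. In RNA of whole lung, fewer cells of a type and less RNA per cell cannot be told apart. The values of the reference genes Gusb and Hsp90ab1 stood out of place in the table. As deposited, none of their 4 group means in p16-/- lungs equalled the deposited mean column, while after a shift by 1 place 4 of 4 did so within 0.001 cycles, as did all 348 group means of the other 87 genes. The shifted values were used.

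No target passed the test between p16-/- CS and p16-/- RA lungs. limma called 0 of 84 targets (0%) at an adjusted p under 0.05, and the smallest adjusted p was 0.78. At an unadjusted p under 0.05 from limma there was 1 target (1.19%), Shc1. By the exact permutation test over lungs, whose smallest possible two-sided p is 0.0286 with 35 divisions of 7 lungs, 0 targets had an unadjusted p under 0.05, and the methods' t-test gave 1 at that level and 0 after adjustment. The point estimates leaned 1 way: 81 targets had a log2 change above 0 and 3 had one below 0, with a median of 0.68 and a middle range of 0.42 to 1.00. Of the 84 changes, 21 reached 1 and 63 lay between -1 and 1.

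The size of this lean varied with 1 lung, and its size and sign varied with the reference genes. The p16-/- CS lung 4 was the highest of all 7 lungs in 72 of the 84 targets. Without it, the median change was 0.19 and 51 targets were above 0. With B2m alone as the reference the median was -0.28 and 24 targets were above 0, whereas with Actb alone it was 1.33 and all 84 were above 0. On CTs without normalization, counted as higher for an earlier CT, the median change was 0.66 and 80 targets were above 0. Gapdh, Gusb and Hsp90ab1 alone gave 83, 81 and 79 targets above 0. The changes below are on the scale of all 5 reference genes together unless another is named, and the counts of members above 0 with B2m alone stand beside them. A single reference shifts every change by the same amount, so these counts all restate 1 shift.

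The lungs differed in the level of the whole array. The median -ΔCT of the 84 targets was -3.16, -2.12, -3.08 and -0.45 in p16-/- CS lungs 1 to 4, against -3.10, -2.80 and -2.80 in p16-/- RA lungs 1 to 3. The p16-/- CS lungs thus spread over 2.72 and enclosed the p16-/- RA lungs, which lay within 0.29 of each other. The mean CT of the 5 reference genes was 24.59, 24.82, 23.39 and 26.32 in p16-/- CS lungs 1 to 4, and 24.80, 24.46 and 25.04 in p16-/- RA lungs. Averaged over all lungs of a group it was 24.78 in CS and 24.77 in RA. CS lung 4 had the latest reference mean of the 7 p16-/- lungs, with 4 of its reference genes the latest of the 7 and B2m, at 23.4 cycles, earlier than in all RA lungs. Its median target CT of 26.76 lay within the p16-/- CS lungs, at 27.75, 26.95 and 26.48 in lungs 1 to 3. The p16-/- RA lungs had median target CTs of 27.89, 27.27 and 27.84. The part of the late reference mean of CS lung 4 in the changes was not tested beyond leaving out that lung.

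**Figure D1:**
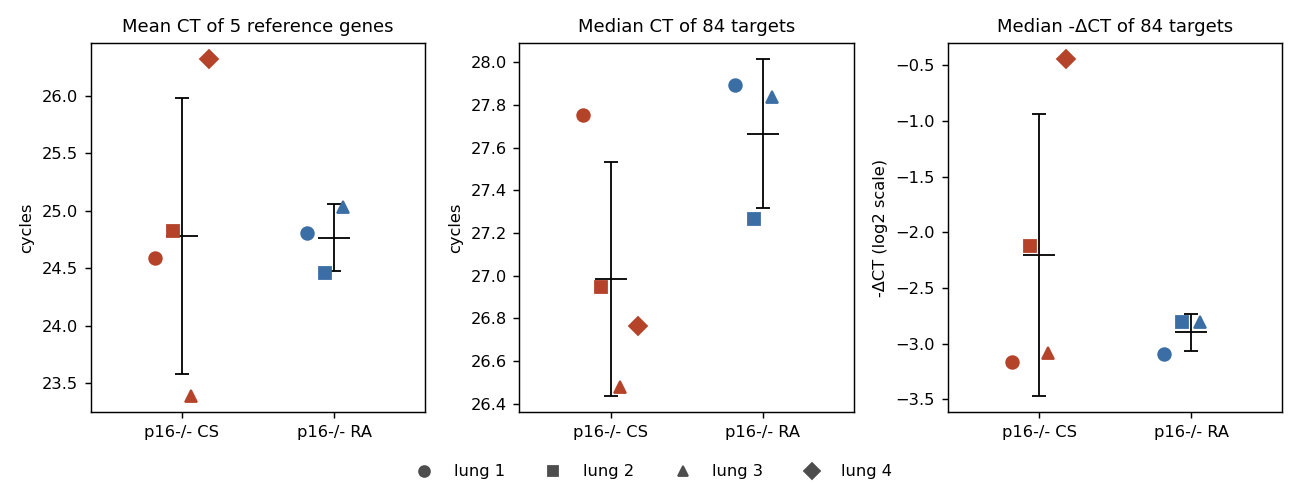
Reference gene mean CT, median target CT and median -ΔCT (log2 scale) of each p16-/- lung, CS on the left and RA on the right. Marker shapes give the lung number. CS lung 4 has the latest reference mean of the 7 lungs (26.32 cycles) and the highest median -ΔCT (-0.45), while the 3 RA lungs lie between -3.10 and -2.80.

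The 5 reference genes differed between p16-/- CS and p16-/- RA lungs in both directions. B2m, the light chain of class I major histocompatibility molecules, crossed the threshold at 23.7, 24.0, 22.5 and 23.4 cycles in p16-/- CS lungs, against 24.1, 24.8 and 24.0 cycles in p16-/- RA lungs. Each CS lung was earlier than each RA lung, though CS lung 2 and RA lung 3 differed by less than 0.1 cycles. The mean difference was -0.95 cycles (two-sided exact permutation test, p = 0.0571, adjusted p = 0.429 over 10 tests of reference genes). Relative to the mean of the 5, B2m differed by -0.96 cycles and the groups overlapped (exact permutation p = 0.314). Actb, which encodes a cytoskeletal actin, was at 26.3, 26.0, 24.1 and 27.4 cycles in CS lungs and at 25.2, 25.2 and 25.5 cycles in RA lungs. Without normalization, Actb was later by 0.66 cycles in CS (exact permutation p = 0.457). Relative to the mean of the 5, it was later by 0.65 cycles (exact permutation p = 0.0857, adjusted p = 0.429). On the scale without normalization, Gapdh, a glycolytic enzyme, differed by 0.28 cycles, Gusb, a lysosomal glucuronidase, by 0.09 cycles, and the chaperone gene Hsp90ab1 by -0.02 cycles. Of the 10 exact tests of these genes, 0 had an unadjusted p under 0.05 and 0 passed after Benjamini-Hochberg adjustment, but a single gene at the smallest possible exact p of 0.0286 would reach an adjusted p of only 0.286 here.

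Docking proteins and adaptors carried the target with the smallest p from limma. Shc1, an adaptor that links activated receptors to Ras, had -ΔCT values of -5.66, -6.77, -6.38 and -5.84 in p16-/- CS lungs, against -8.20, -6.17 and -8.35 in those in RA. The CS lungs lay close together, and RA lung 2 fell inside their range, so the groups overlapped. The log2 change was 1.41 (standard error 0.64, 95% interval 0.05 to 2.78, adjusted p = 0.78 from limma), a 2.66-fold difference whose interval ran from 1.03 to 6.86-fold. Of the 84 intervals, it was the only one that left out 0, and this did not hold with the 7 p16-/- lungs alone in the fit, where 0 targets had an unadjusted p under 0.05. The two-sided exact permutation p of Shc1 was 0.114. Its change was 0.07 with a CT limit of 30, 0.65 with a limit of 32, 0.45 with B2m alone as the reference and 2.12 without RA lung 2, and 1.31 without CS lung 4.

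The other adaptors gave wider or smaller estimates. Cbl, a ubiquitin ligase that binds activated receptors, had the widest interval of the array, with -ΔCT of -6.88, -5.87, -2.30 and 2.53 in p16-/- CS lungs and -0.79, -6.44 and -9.11 in p16-/- RA lungs. Both groups spread over more than 8 log2 units, so its change of 2.32 carried an interval of -1.72 to 6.35. The change of Cbl was 0.43 without CS lung 4, 0.49 without RA lung 3 and 4.64 without RA lung 1. Grb10, an adaptor that restrains receptor signaling, had a log2 change of 1.22 (standard error 0.92). The insulin receptor substrates, the docking proteins nearest to the receptor, had changes of 0.81 for Irs2 and 0.60 for Irs1. All 14 members of the group lay above 0 with a median of 0.85, against 0.68 over the 84 targets, and without CS lung 4 their median was 0.33. With B2m alone as the reference, 5 of the 14 were above 0.

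Among the receptor, ligand and hormone genes, none of 11 was called. Igf1r, the receptor for insulin-like growth factors, had -ΔCT of -3.22, -1.77, -1.90 and 1.11 in p16-/- CS lungs and -1.25, -1.61 and -1.55 in p16-/- RA lungs. Its 3 RA lungs agreed within 0.36 and lay inside the 4.33 spanned by the CS lungs. The change was 0.02 (standard error 0.82), with an interval of -1.72 to 1.77. Igf2, a ligand of that receptor, was at 0.51 (standard error 0.77). Vegfa, the vascular endothelial growth factor, gave the largest estimate of the group. Its -ΔCT was -7.92, -5.02, -4.10 and -4.97 in p16-/- CS lungs, and -5.28, -10.54 and -9.96 in p16-/- RA lungs, where lungs 2 and 3 were at the CT limit of 35 and so hold only a bound. RA lung 1 lay among the CS lungs. The change was 3.09 (standard error 1.55, interval -0.20 to 6.38) and 2.91 without CS lung 4. It was 5.05 where CTs over 35 were kept as deposited, and 0.68 where the limit was set at 30 (adjusted p of 0.384 and 0.747 from limma).

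Tg, which encodes thyroglobulin and is known from the thyroid, had its lowest RA values in the same 2 lungs. Its -ΔCT was -10.41, -5.27, -5.23 and -6.46 in p16-/- CS lungs, against -6.26, -9.83 and -9.96 in p16-/- RA lungs, and CS lung 1 and RA lung 3 were at the CT limit. The change was 1.84 (standard error 1.16). Lep, which encodes the adipocyte hormone leptin, was at 1.30 (standard error 1.27), and Npy, the gene of neuropeptide Y, at 0.77 (standard error 0.76). The group ranged from 0.02 to 3.09 with a median of 0.67, and of 0.17 without CS lung 4. All 11 were above 0, against 3 with B2m alone as the reference.

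In the PI3K, Akt and mTOR branch, 10 of 12 members were above 0 and 2 below, with a median of 0.59, and -0.16 without CS lung 4. With B2m alone as the reference, 2 were above 0. Akt1, a kinase at the center of the branch, had -ΔCT of -1.61, -1.83, -3.36 and -2.39 in p16-/- CS lungs, against -4.06, -2.76 and -1.84 in p16-/- RA lungs. Single lungs of both groups lay at either end, and the groups overlapped widely. The change was 0.59 (standard error 0.89), or 1.50-fold with an interval of 0.408 to 5.54-fold. It was 0.00 without RA lung 1, 1.11 without RA lung 3 and 0.62 without CS lung 4, and it was -0.37 with B2m alone as the reference and 1.24 with Actb alone.

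Other members of the branch gave values on both sides of 0. Akt2, which mediates glucose uptake in fat and muscle, was at 0.96 (standard error 1.09), and Gsk3b, a kinase that Akt inhibits, at 0.80 (standard error 1.09). Eif2b1, a subunit of a translation initiation factor, was at 1.27 (standard error 0.97), and Pik3r2, a regulatory subunit of PI3K, at 0.84 (standard error 1.03). Pik3r1, the other regulatory subunit on the array, had the lowest change of all, at -0.36 (standard error 1.46, interval -3.46 to 2.73). Its -ΔCT was -10.41, -4.15, -4.32 and -1.05 in p16-/- CS lungs and -3.34, -6.13 and -4.40 in p16-/- RA lungs, so that the CS lungs held both the lowest value, at the CT limit in lung 1, and the highest.

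**Figure D2:**
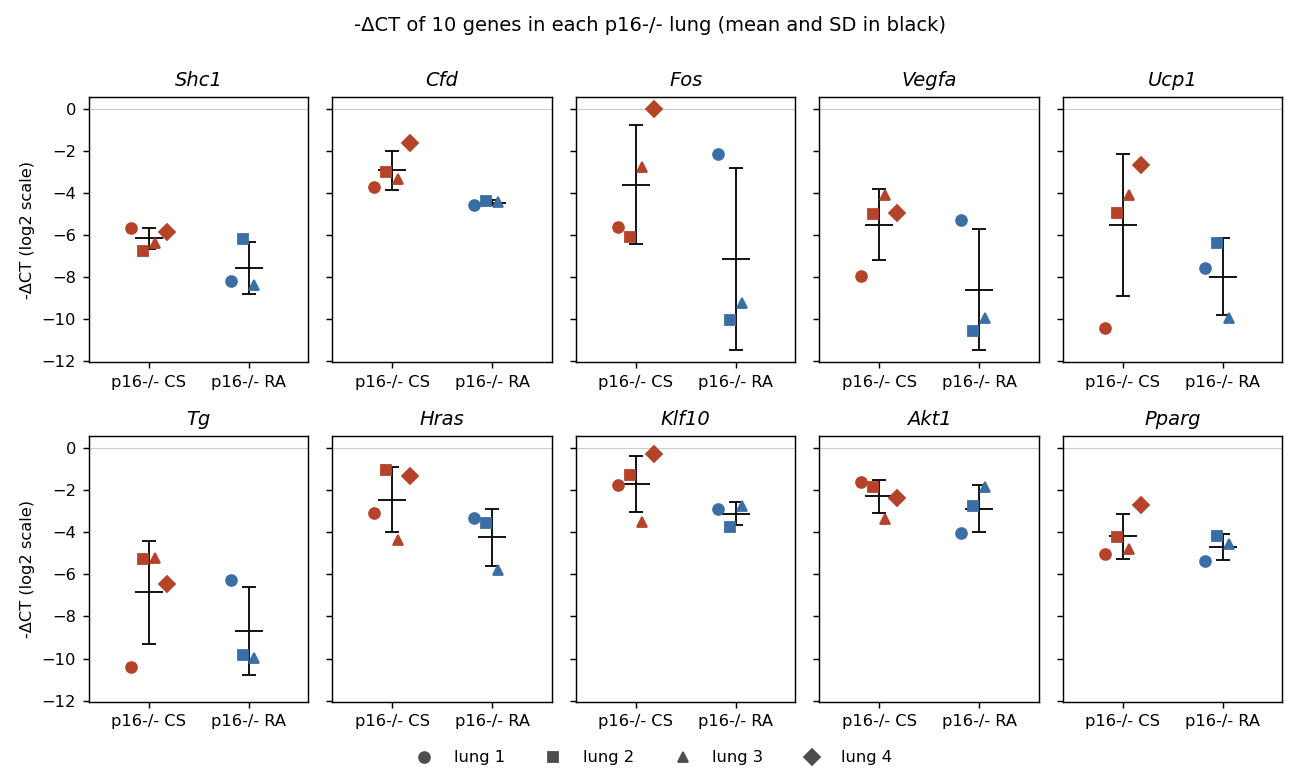
The -ΔCT (log2 scale) of 10 genes in each p16-/- lung, CS on the left and RA on the right of each panel, 1 point per lung, with the mean and SD in black. The groups overlap in every panel but that of Cfd, whose CS lungs lie between -3.73 and -1.62 and whose RA lungs lie between -4.59 and -4.37.

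The Ras, Raf and MAPK branch had all 11 members above 0 with a median of 0.76, which was -0.07 without CS lung 4, and 4 members were above 0 with B2m alone as the reference. Hras, a Ras GTPase, had -ΔCT of -3.08, -1.05, -4.35 and -1.33 in p16-/- CS lungs and -3.34, -3.56 and -5.79 in p16-/- RA lungs. Of the CS lungs, only lung 3 fell among the RA lungs. The change was 1.78 (standard error 1.02, interval -0.38 to 3.94). Araf, a Raf kinase, was at 1.67 (standard error 1.31), and Rps6ka1, a kinase downstream of MAPK, at 1.06 (standard error 1.47). Rras, a Ras-related GTPase, had among the narrowest intervals of the array, -1.08 to 1.39 around a change of 0.16. Its -ΔCT was -2.64, -1.40, -2.50 and -1.27 in p16-/- CS lungs and -2.19, -2.18 and -1.97 in p16-/- RA lungs, so the RA lungs lay inside the CS range.

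The 7 transcription factors had the highest median change of the role groups, 1.29, and 0.93 without CS lung 4. None of the 7 was called, and all were above 0, or 5 with B2m alone as the reference. Fos, an immediate early gene and partner of Jun in the AP-1 complex, had the largest change of the array, 3.52 (standard error 1.75, interval -0.18 to 7.23, adjusted p = 0.78 from limma). Its -ΔCT was -5.64, -6.08, -2.75 and -0.01 in p16-/- CS lungs and -2.17, -10.04 and -9.22 in p16-/- RA lungs. RA lung 1 was higher than 3 of the 4 CS lungs, while RA lungs 2 and 3 were below all of them. Without RA lung 1 the change of Fos was 6.01 (adjusted p = 0.0906 from limma), without RA lung 2 it was 2.07, without CS lung 4 it was 2.32, and with a CT limit of 30 it was 0.89.

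Klf10, a factor induced by transforming growth factor β, was at 1.41 (standard error 0.83), with -ΔCT of -1.77, -1.26, -3.49 and -0.30 in p16-/- CS lungs and -2.88, -3.74 and -2.74 in p16-/- RA lungs. CS lung 3 alone fell among the RA lungs. Jun, the AP-1 partner of Fos, and Srebf1, which encodes a regulator of lipid synthesis, were both at 1.29. Pparg, the nuclear receptor that drives adipocyte differentiation, had -ΔCT of -5.06, -4.24, -4.81 and -2.69 in p16-/- CS lungs, against -5.37, -4.19 and -4.55 in p16-/- RA lungs. Only CS lung 4 stood clear of the others. The change was 0.50 (standard error 0.64), or 1.42-fold with an interval of 0.549 to 3.65-fold, and 0.00 without CS lung 4.

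Metabolic genes made up 16 of the targets. Cfd, which encodes the adipocyte protease complement factor D, was the only target whose p16-/- lungs did not overlap, higher in CS (1.19% of 84; 0% were lower). Its -ΔCT was -3.73, -2.99, -3.36 and -1.62 in p16-/- CS lungs, against -4.59, -4.37 and -4.44 in those in RA. The RA lungs agreed within 0.22 and the CS lungs spread over 2.11. The change was 1.54 (standard error 0.85, interval -0.27 to 3.34), with a two-sided exact permutation p of 0.0571, adjusted p = 0.78 from limma, and 1.10 without CS lung 4. Ucp1, the uncoupling protein of brown fat, was at 2.44 (standard error 1.38). Its -ΔCT was -10.41, -4.94, -4.11 and -2.67 in p16-/- CS lungs and -7.59, -6.38 and -9.96 in p16-/- RA lungs, with CS lung 1 and RA lung 3 at the CT limit. CS lungs 2 to 4 were above all RA lungs and CS lung 1 was below them. Without CS lung 1 the change was 4.07 and passed the test, with an adjusted p of 0.035 from limma. Without CS lung 4 the change of Ucp1 was 1.49, without RA lung 3 it was 1.45 and with B2m alone as the reference it was 1.49, and none of these passed.

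Both genes are markers of fat, and 4 genes of the array were taken as such markers. Pparg, which drives adipocyte differentiation, was not among them and had a change of 0.50. All 4 (Cfd, Lep, Retn and Ucp1) lay above 0, as did 81 of the 84 targets. Retn, at 0.62, was the lowest of them. Their median was 1.42, or 0.64 without CS lung 4, and none was called. With B2m alone as the reference, 3 of the 4 were above 0. Their mean -ΔCT was -5.88, -3.98, -3.46 and -1.34 in p16-/- CS lungs 1 to 4, and -4.64, -4.98 and -5.81 in p16-/- RA lungs. The CS lungs held the lowest and the 3 highest values, and none of the 4 markers was below detection in all lungs of a group. Retn and Ucp1 lie in column 11 of the plate and Lep in column 12, where the lungs differed in level, as given below. The parts of adhering fat and of plate position in these values were not tested.

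The other metabolic genes stayed closer to the median of the array. All 9 carbohydrate genes were above 0, between 0.23 and 1.08, with a median of 0.77 and of 0.03 without CS lung 4, and 1 was above 0 with B2m alone as the reference. Fbp1, a gluconeogenic enzyme, was at 1.08 (standard error 1.24), Gpd1, a glycerol phosphate dehydrogenase, at 0.93 (standard error 1.27), and Hk2, a hexokinase, at 0.79 (standard error 1.28). The glucose transporter gene Slc2a1 had a standard error of 0.65 around a change of 0.84. In the lipid and adipocyte group the median of 7 genes was 0.45, with all above 0, or 2 with B2m alone as the reference. Slc27a4, a fatty acid transporter, was among the best bounded, at 0.45 with an interval of -0.79 to 1.69.

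The phosphatases had 4 of 4 members above 0 (median 0.77), or 1 with B2m alone as the reference, with Dusp14, a phosphatase of MAP kinases, at 1.03 (standard error 1.47) and Ppp1ca, a catalytic subunit of protein phosphatase 1, at 0.77 (standard error 0.60). The 3 protein kinase C isoforms ran from 0.51 to 0.68, and 0 of 3 were above 0 with B2m alone as the reference. Prkcz, the atypical ζ isoform, had the smallest standard error of the array. Its -ΔCT was -7.64, -7.82, -7.91 and -7.08 in p16-/- CS lungs, and -8.22, -7.33 and -8.83 in p16-/- RA lungs. The change of 0.51 had an interval of -0.68 to 1.70. Of the remaining targets, Bcl2l1, an inhibitor of apoptosis, was at 1.75 (standard error 1.28), and Nos2, the inducible nitric oxide synthase, at 0.62 (standard error 0.74). Cap1, which binds actin and adenylyl cyclase, was at -0.14 (standard error 1.72), and the DNA repair gene Ercc1 at 0.13 (standard error 1.74).

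**Figure D3:**
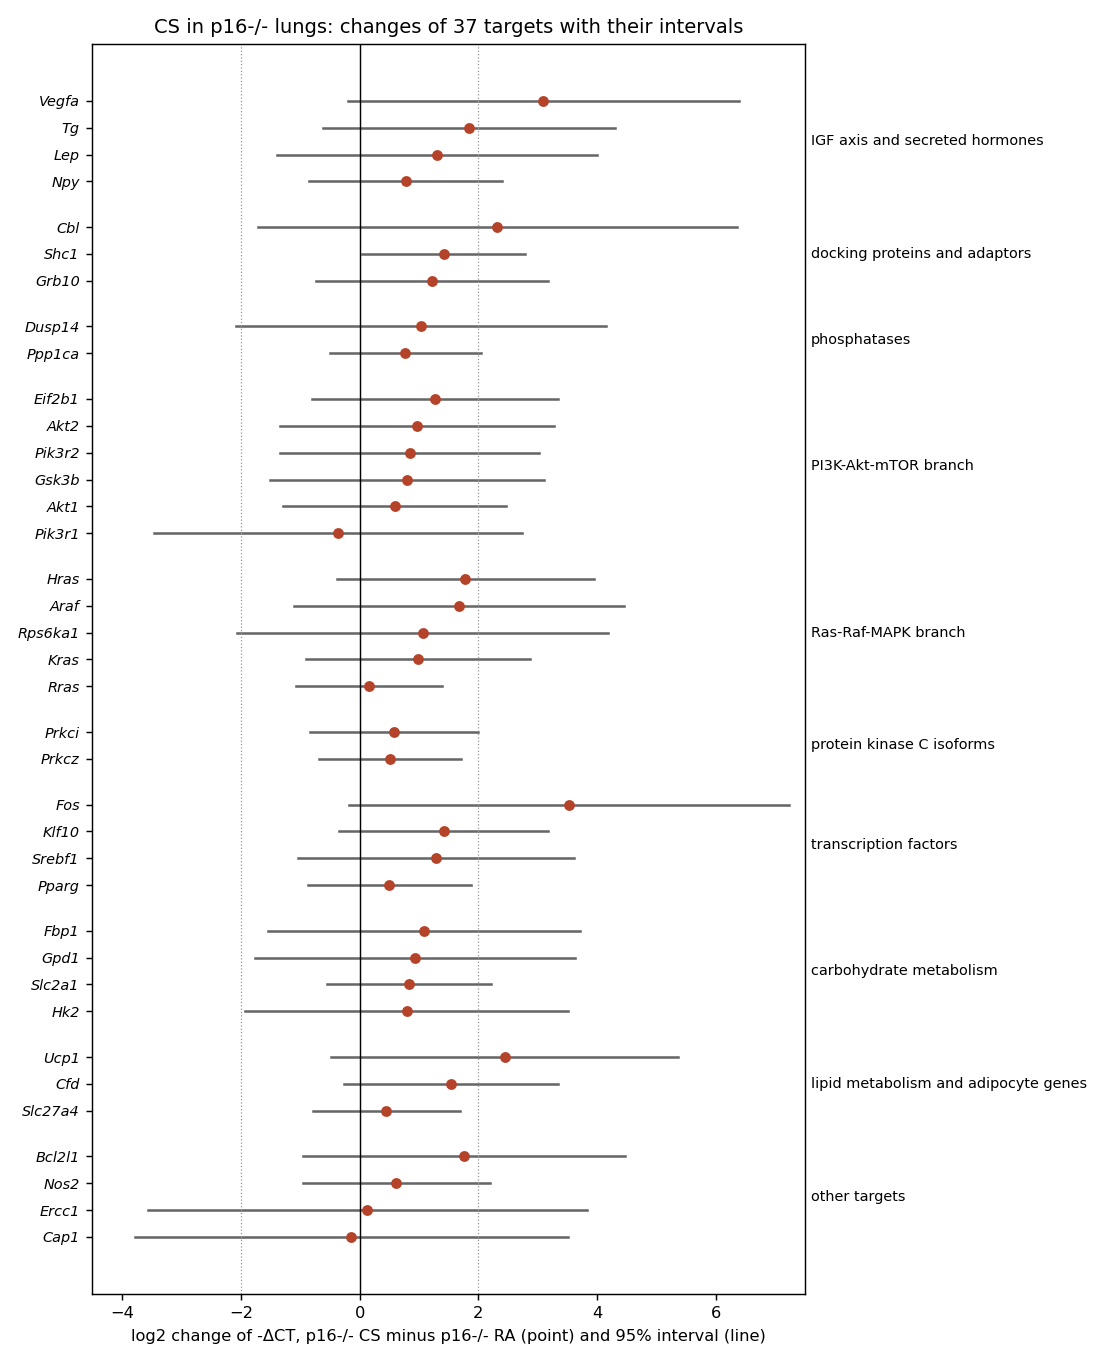
Log2 change of -ΔCT between p16-/- CS and p16-/- RA lungs (points, with zero marked) and 95% interval (lines) for the 37 targets named by rule, grouped by role. Shc1 (interval 0.05 to 2.78) is the only target whose interval leaves out 0, and Fos (3.52) is the largest change and Pik3r1 (-0.36) the smallest.

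The bounds show how far the 7 lungs limit the CS effect. Standard errors ran from 0.56 to 1.90 with a median of 0.88 on the log2 scale. To pass the adjusted threshold alone, a target would have needed a change between 2.40 (Prkcz) and 8.13 (Cbl), with a median of 3.74. No upper bound was under 1, so a 2-fold higher level in p16-/- CS lungs was within the interval of all 84 targets. The upper bound was under 2 in 17 targets, among them Igf1r, Mtor, Map2k1, Pik3ca, Pparg, Prkci, Prkcz, Rras and Slc27a4, and was 3 or more in 31. The lower bound was above -1 in 34 targets and above -2 in 74, and it was -2 or less in 10. In 17 targets the interval lay within -2 and 2.

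The spread of -ΔCT was wider in CS. The SD over lungs was larger in p16-/- CS than in p16-/- RA lungs for 71 of 84 targets, and larger in RA for 13. The median SD was 1.31 in CS, over a range of 0.38 to 4.44, and 0.63 in RA, over 0.07 to 4.33. The lowest of the CS lungs was lung 3 in 43 targets and lung 1 in 38. The groups held 4 and 3 lungs, and no test of the spread was run.

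The estimates also varied with the position of a target on the plate. Of the 10 largest changes, 8 fell in plate columns 9 to 12, which hold 28 targets, while columns 1 to 8 hold 56. The median change was 0.91 for targets of columns 9 to 12 (median standard error 1.26) and 0.60 for those of columns 1 to 8 (median standard error 0.78). The largest change in columns 1 to 8 was that of Araf, at 1.67. Single lungs differed in the level of the late columns: their mean -ΔCT minus that of columns 1 to 8 was -3.87, -1.39, -0.35 and 0.00 in p16-/- CS lungs 1 to 4, and -0.15, -2.66 and -2.72 in p16-/- RA lungs. In column 12, which holds Fos, Vegfa, Cbl, Hras and Lep, the median -ΔCT was -7.22, -5.87, -4.10 and -0.94 in the CS lungs and -3.34, -8.26 and -6.36 in the RA lungs. RA lung 1 was thus high and RA lungs 2 and 3 low in this column. Fos and Vegfa had the same order of RA lungs, but they are among the 7 targets that form this median. Their match to it is therefore partly built in. Hras, of the same column, was at -3.34, -3.56 and -5.79 in RA lungs 1 to 3, so its lung 2 was not low. Removing the mean of each plate column from each lung centers the targets of each column by construction. The change was then 1.53 for Fos, 1.10 for Vegfa, 0.33 for Cbl and -0.21 for Hras, and 0 targets were called. The part of the plate position in these changes was not tested.

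**Figure D4:**
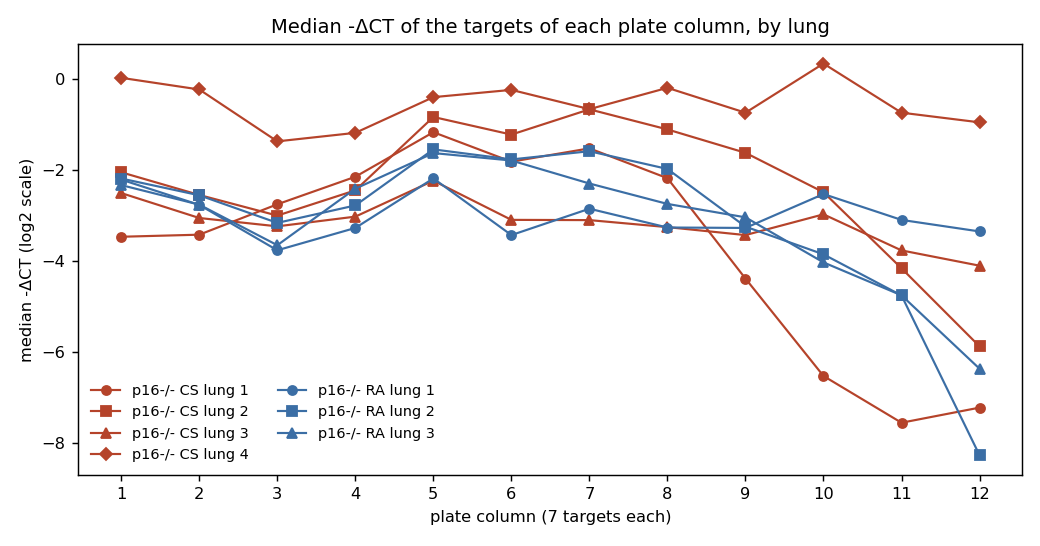
Median -ΔCT (log2 scale) of the 7 targets of each plate column, 1 line per p16-/- lung. In column 12 the medians range from -7.22 to -0.94 among the CS lungs and from -8.26 to -3.34 among the RA lungs.

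The CS effect in p16-/- lungs was set against that in p16+/+ lungs as an interaction in the same fit. The median of CS minus RA was 0.68 in p16-/- lungs and 0.12 in p16+/+ lungs, and limma called 0 targets in p16+/+ lungs, with 0 at an unadjusted p under 0.05. For the difference of the effects, limma called 0 of 84 targets after adjustment (0%) and 1 had an unadjusted p under 0.05 (1.19%). This was Cfd, with a change of 1.54 in p16-/- and -0.92 in p16+/+ lungs and a difference of 2.46 (standard error 1.16, adjusted p = 0.97 from limma). The median difference was 0.67 with a median standard error of 1.19, and it was 0.01 without CS lung 4. Without p16+/+ RA lung 1, which holds filled reference CTs, the median difference was 0.94. In that fit 0 targets had an unadjusted p under 0.05 for the difference.

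**Figure D5:**
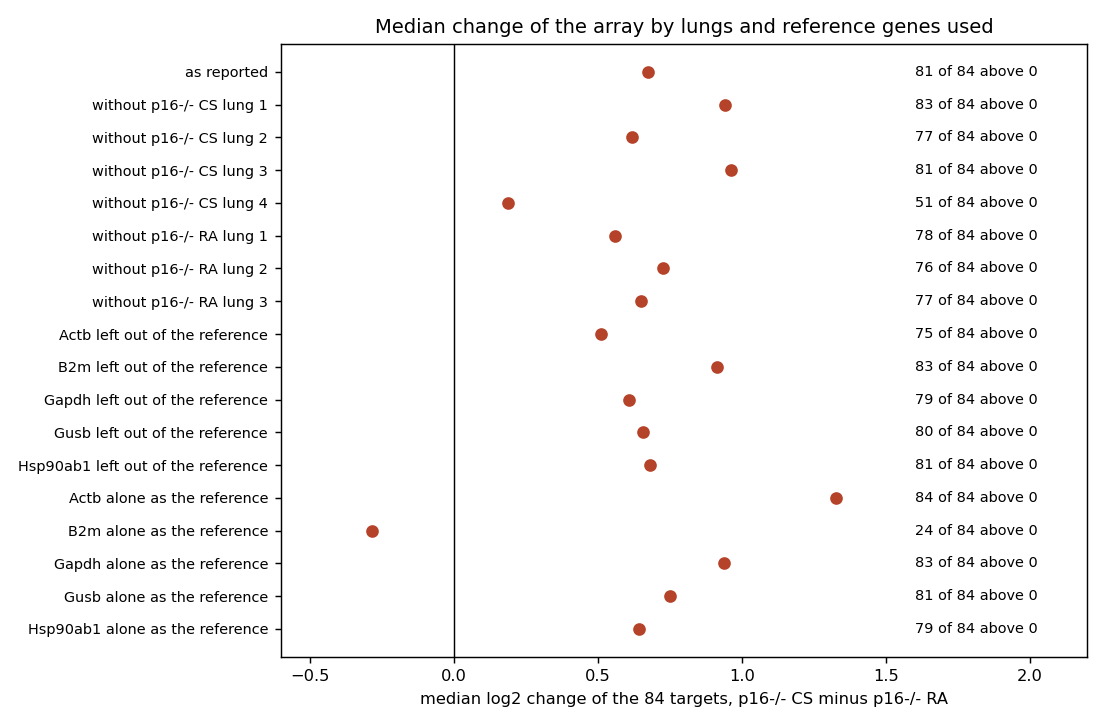
Median log2 change of the 84 targets between p16-/- CS and p16-/- RA lungs, by the lungs and the reference genes used. It runs from -0.28 with B2m alone to 1.33 with Actb alone as the reference, and is 0.19 without CS lung 4.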

How the data were processed

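The authors measured RNA of whole lung on an insulin signaling PCR array, with SYBR Green detection and CFX Manager. The CT values as deposited are log2-type values without normalization, and their baseline and threshold are not given in the sources used here. A second table holds the authors' own group fold changes, normalized to the 5 housekeeping genes, with their p-values, and was not used. Of the columns, 15 were taken as lungs, 4 group-mean columns were left out, and 0 belonged to no group. Gusb and Hsp90ab1 were moved by 1 place. Their CTs missing in p16+/+ RA lung 1 were filled with the mean of its group's other lungs. The fill leaves the p16-/- values untouched, but it enters the shared spread, the CS effect in p16+/+ lungs and the interaction.

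A blank CT, or one above the limit of 35, was taken as 35, -ΔCT was formed with the 5 reference genes, and the 4 groups entered one limma fit (limma 3.58.1, R 4.3.3; 11 residual degrees of freedom), with Benjamini-Hochberg adjustment over 84 targets at 0.05. Intervals are 95% intervals of that fit, unadjusted. Two-sided exact permutation tests were run per gene, and the methods' t-test was an alternative. Python 3.11.15 with numpy 2.4.6, pandas 2.3.3 and matplotlib 3.10.9 did the rest. The fit was tested on simulated data. The RefSeq gene table (GRCm38.p6), used for names only, held 89 of 89 symbols. The number of lungs limits the precision: CTs above 30 cycles or blank made up 2 to 21 targets per p16-/- CS lung and 9 to 18 per p16-/- RA lung.

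Genes named were Akt1 and Pparg, which the paper discusses, the reference genes, the 8 smallest p-values, changes under 0, targets without overlap, the 3 narrowest and 3 widest intervals, and the 2 to 4 largest changes per list. Others are named for their place in the pathway, as fat markers or for their bounds, after their values were seen. Members and lists were chosen with earlier results of these data known. Some genes of the array are counted but not reported here.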

Additional observations from a re-analysis of the deposited data

How the results depend on the processing

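Over 30 settings, 24 planned and 6 chosen after seeing the data, 29 gave 0 calls between p16-/- CS and p16-/- RA lungs. The exception was the fit without p16-/- CS lung 1, in which 1 target, Ucp1, passed. Leaving out each of the 7 p16-/- lungs in turn gave between 0 and 1 calls and a median change between 0.19 (without CS lung 4) and 0.96 (without CS lung 3). Leaving out 1 reference gene gave medians of 0.51 to 0.91. Single reference genes gave medians of -0.28 (B2m), 0.64 (Hsp90ab1), 0.75 (Gusb) and 1.33 (Actb), all chosen after seeing the data, and 0.94 for Gapdh, which was planned. Scaled to the median target it was -0.02, and with Gusb and Hsp90ab1 as deposited 0.75. Of the other added settings, leaving out CS lungs 1 and 4 together gave 0.31 and leaving out p16+/+ RA lung 1 gave 0.68. No other p16+/+ lung was left out. The methods' t-test gave 0 calls after adjustment, as did the exact permutation test, which could call a target only if more than 48 shared its smallest p. The interaction and the tests of reference genes gave 0 calls in each setting in which they were run. The 37 targets named by rule had 1181 alternative values. Of these, 1116 kept the sign without a call, 64 took the other sign without a call and 1 was called. The cause of these shifts was not tested. Group sizes of 4 and 3 lungs, CTs at the limit of 35 in 7 targets and the late reference mean of CS lung 4 limit all values. No paired analysis was possible because the sample labels carry no replicate numbers and nothing ties lungs of the same column number.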
